A study of Mus musculus with 5 samples.

Results

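The 43 genes described here encode the machinery that pulls chromosomes apart in mitosis. They were chosen by name, as a list of genes with known roles, and all 43 were found among the 27998 gene identifiers measured. By role they are 8 mitotic kinesins, 7 centromere and kinetochore genes, 4 genes of the chromosomal passenger complex, 4 spindle checkpoint genes, 8 spindle assembly genes, 4 cytokinesis genes, 6 genes of the mitotic cyclins, their kinase and mitotic exit, and 2 genes of chromosome structure and surface. The study sequenced RNA of single cells from mouse bone marrow in 5 libraries, numbered 1, 2 and 3 for the young mice (aged 10 to 12 weeks) and 2 and 3 for the aged mice (over 20 months). The mice of both age groups were of the Nes-GFP strain, which carries a green fluorescent reporter. Cells that lacked CD45 and carried CD31 were sorted as endothelial cells from the inner bone surface, frozen, thawed and run in droplets, where transcripts received, next to their 3' ends, a barcode for the cell and a random tag for the molecule (unique molecular identifier, UMI). Whether a library came from 1 mouse or from pooled mice is not given in the sources used here, so p-values measure the spread between these libraries. The cells measured were mostly not endothelial: of 2116 cells that passed the filters, 1902 lay in clusters with B-lineage markers. A further 192 lay in a neutrophil-like cluster with 6 of 11 neutrophil markers detected. The other 22 lay in an endothelial-like cluster with 13 of 14 endothelial markers detected.

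In mitosis, kinesin motors and microtubule binding proteins build the spindle, and the kinetochore, assembled on centromeric chromatin, attaches each chromosome to it. The chromosomal passenger complex corrects faulty attachments, the spindle checkpoint holds the cell until every kinetochore is attached, and the anaphase promoting complex then triggers separation, after which the cytokinesis genes divide the cell. Most of these genes are transcribed from late S phase to mitosis, so their transcripts mark dividing cells, and in bone marrow early B-cell precursors and granulocyte precursors are known to divide.

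Promoters of such genes are known for CCAAT boxes, bound by NF-Y, and for the cell cycle genes homology region (CHR), bound by the DREAM and MuvB complexes, with TTTGAA as its typical core. RefSeq promoter windows of GRCm38.p6, from 250 bases before to 50 bases after a start site, were matched for 38 of the 43 genes and gave 40 windows. The motifs searched, on both strands, were the CCAAT box and for the CHR either TTTGAA or its variant TTTAAA, none of which is contained in another. CCAAT was found in 77.5% of the 40 windows and in 37.4% of all 32851 windows of this length. A CHR core was found in 36 of the 40 windows against 27.6% of all, and both kinds of motif in 30 of the 40 against 10.7%. Among 6690 windows of genes with at least as many UMIs in B-lineage cells as the lowest of the 43, the shares were 38.4% for CCAAT, 20.0% for a CHR core and 8.1% for both. A further motif searched, the E2F site (TTTGGCGC, TTTCCCGC, TTTGCCGC or TTTCGCGC), was found in 2 of the 40 windows (5.0%). Its share was 2.3% of all windows and 4.8% of those 6690. TTTGAA lay at a median of 1 base before the start site and CCAAT at a median of 67 bases before it. A match is a description of letters and was not tested as a site.

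The stretches below run 5' to 3' on the gene's own strand, from 130 bases before to 20 bases after the start site. CCAAT and CHR motifs of either strand are in capitals (CCAAT read on the opposite strand is ATTGG, and TTTGAA read so is TTCAAA). Top2a, Ube2c, Ccnb2 and Cenpf are shown as examples with both CCAAT and a CHR core. Cenpa is shown for its pattern across cells with and without S phase genes outside young replicate 1 (given later). Nusap1 is shown as a member with no CCAAT or CHR match in its window. They lie at chr11:99024170-99024319 (minus strand), chr2:164769799-164769948 (plus), chr9:70421535-70421684 (minus), chr1:189688067-189688216 (minus), chr5:30666756-30666905 (plus) and chr2:119618168-119618317 (plus) of GRCm38.p6.
Top2a: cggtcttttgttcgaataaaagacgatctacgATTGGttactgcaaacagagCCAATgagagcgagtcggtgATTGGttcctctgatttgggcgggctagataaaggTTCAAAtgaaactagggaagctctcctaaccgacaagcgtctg
Ube2c: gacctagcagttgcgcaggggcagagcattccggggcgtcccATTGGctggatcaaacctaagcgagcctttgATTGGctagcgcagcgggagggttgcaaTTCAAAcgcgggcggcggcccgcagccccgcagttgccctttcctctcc
Ccnb2: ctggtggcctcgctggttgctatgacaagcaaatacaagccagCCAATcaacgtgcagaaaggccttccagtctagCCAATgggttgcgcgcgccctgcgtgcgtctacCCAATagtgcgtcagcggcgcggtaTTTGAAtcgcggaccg
Cenpf: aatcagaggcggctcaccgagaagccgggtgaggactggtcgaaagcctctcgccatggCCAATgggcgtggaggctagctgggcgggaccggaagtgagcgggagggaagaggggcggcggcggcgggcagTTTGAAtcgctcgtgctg
Cenpa: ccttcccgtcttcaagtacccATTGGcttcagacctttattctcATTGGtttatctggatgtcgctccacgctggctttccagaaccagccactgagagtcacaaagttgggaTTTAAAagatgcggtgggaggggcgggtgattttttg
Nusap1: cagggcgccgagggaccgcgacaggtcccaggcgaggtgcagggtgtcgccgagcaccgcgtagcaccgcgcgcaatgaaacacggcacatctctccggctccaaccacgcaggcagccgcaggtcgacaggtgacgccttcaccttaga
The Top2a stretch held 3 CCAAT boxes and 1 TTTGAA, and the Ccnb2 stretch held the same numbers. Nusap1 had none of these letters, and the windows of Mad2l1 and Nuf2 also had none. These members did not follow the others across B-lineage cells to a like degree (Pearson's correlation with the number of other members detected, at equal depth, as given below). In young replicate 1 the values were 0.31 for Nusap1, 0.15 for Mad2l1 and 0.059 for Nuf2. In the other libraries they were 0.49, 0.23 and 0.17. In young replicate 1 (705 cells) Nusap1 was detected in 131 cells, Mad2l1 in 66 and Nuf2 in 23. In the other libraries (1197 cells) the numbers were 37, 30 and 4, so the values for Nuf2 rest on few cells. A link to the motifs was not tested.

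Depth and cell numbers differed between libraries, and young replicate 1 stood apart. It held 890 of the 2116 cells kept and 5900751 UMIs, against 935656 to 1312911 UMIs in the other 4 libraries. Its B-lineage cells had a median of 3733 UMIs, against 1872 to 2872.5 elsewhere, and the smallest barcode deposited for it had 2023 UMIs, against 391 to 562 elsewhere. Of the 192 neutrophil-like cells 177 came from it. Of 2111 barcode sequences among kept cells, 5 occurred in more than 1 library. To compare cells at equal depth, each was thinned at random to 1000 UMIs, and a cell with at least 3 of the 43 genes detected is called member-positive below.

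Member-positive cells were common in young replicate 1 and uncommon in the other libraries, young or aged. They were 67.0% of B-lineage cells (95% exact binomial interval 63.3 to 70.4) in young replicate 1. The other young libraries had 7.2% (4.2 to 11.4) in replicate 2 and 6.5% (4.0 to 9.8) in replicate 3. The aged libraries had 6.1% (3.6 to 9.5) in replicate 2 and 8.1% (5.5 to 11.2) in replicate 3, 1 below and 1 above both of these. Intervals cover counting error only. Without thinning the shares were 83.5%, 15.7%, 12.9%, 11.4% and 13.2% in the same order. Restricted in every library to cells with at least 2023 UMIs, a depth chosen after seeing the data, they were 67.0%, 8.5%, 11.2%, 6.6% and 14.5%. The mean was 26.9% ± 34.7 (SD, n = 3) in young and 7.06% ± 1.40 (SD, n = 2) in aged libraries (two-sided exact permutation p = 0.8, where 0.1 is the smallest p that 10 splits allow). Without young replicate 1 the difference, aged minus young, was 0.238 percentage points in place of -19.8.

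**Figure D1:**
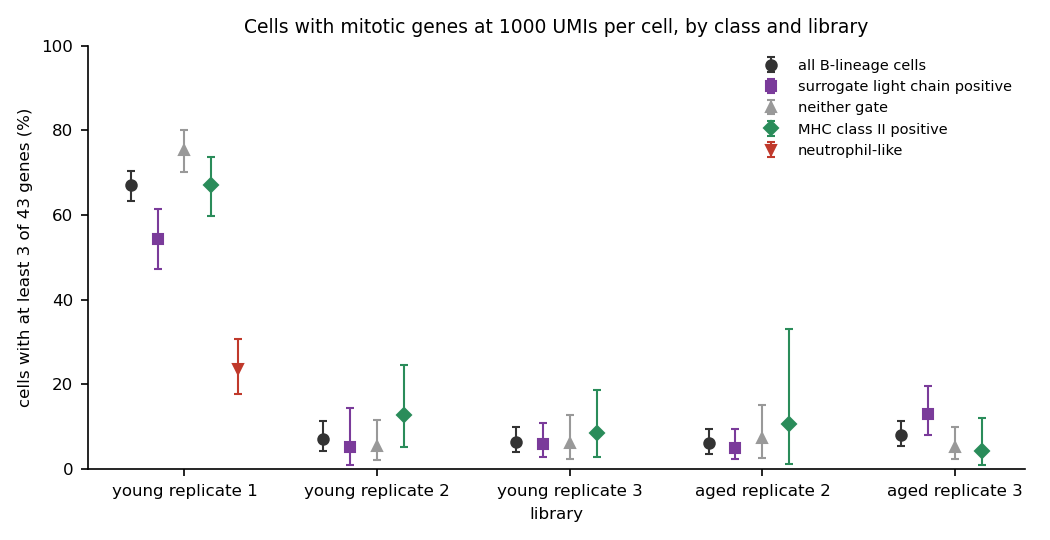
Share of cells with at least 3 of the 43 mitotic genes at 1000 UMIs per cell (vertical axis, percent) in each library (horizontal axis), for all B-lineage cells, their 3 stages and, where a library held at least 10, neutrophil-like cells. Bars are 95% exact binomial intervals. B-lineage cells of young replicate 1 stand at 67.0% and those of the other libraries between 6.1% and 8.1%.

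Levels of the members in B-lineage cells are given as CPM, the counts (UMIs) of a gene scaled to a total of 1000000 UMIs of those cells. Values by library stand in the order young replicates 1, 2 and 3, then aged replicates 2 and 3. Summed over the 43 genes the level was 6725, 2330 and 1176 CPM (young) against 1417 and 1619 (aged). Young replicate 1 had the highest level for all 43 genes, where it was highest for 26.4% of 6582 genes with at least 94 UMIs, the number of the lowest member. Its ratio to the next highest library had a median of 2.69 and ran from 1.32 for Ndc80 to 4.86 for Cenpf. Both aged libraries lay below all 3 young libraries for 3 of the 43 (Top2a, Ccnb1 and Anln), against 5.06% of the 6582 genes. Anln had 94 UMIs in B-lineage cells, 80.9% of them in young replicate 1, so its order elsewhere rests on few UMIs. In such sums fewer dividing cells and less RNA per cell cannot be told apart.

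Among the kinesins, Kif11 slides spindle microtubules apart. It stood at 144, 48.8 and 15.5 CPM (young) against 24.2 and 16.8 (aged). Kif22, which pushes chromosome arms outward, stood at 113, 43.9 and 23.9 CPM (young) against 34.8 and 40.4 (aged). Kif23, the motor of the central spindle, stood at 93.7, 36.6 and 16.9 CPM (young) against 33.7 and 31.4 (aged). For all 3 the aged values lay between those of young replicates 2 and 3. The other 5 kinesins, Kif20a, Kif20b, Kif2c, Kif4 and Kif15, ran from 21.7 to 74.9 in young replicate 1 and from 4.22 to 20.7 elsewhere.

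Cenpa, the histone H3 variant that marks centromeres, was at 431, 163 and 152 CPM (young) against 149 and 194 (aged). Spc24, a subunit of the NDC80 complex that binds microtubules, was at 268, 86.5 and 56.3 CPM (young) against 55.8 and 62.9 (aged). Cenpf, a large kinetochore protein that builds up in G2, was at 207, 42.7 and 19.7 CPM (young) against 29.5 and 21.3 (aged). Outside young replicate 1 the 4 libraries spanned a narrow range for Cenpa, from 149 to 194, and Ndc80 was likewise close between libraries, with 93.2, 63.4 and 50.7 CPM (young) against 70.6 and 58.4 (aged). The remaining kinetochore genes, Cenpe, Spc25 and Nuf2, were at 135, 161 and 39.7 in young replicate 1 and between 2.82 and 48.8 elsewhere.

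In the chromosomal passenger complex, Birc5 (survivin) had 586, 156 and 90.1 CPM (young) against 71.6 and 134 (aged). Cdca8 (borealin) had 226, 81.7 and 42.2 CPM (young) against 49.5 and 74.1 (aged). Incenp, the scaffold of the complex, had 121, 42.7 and 39.4 CPM (young) against 45.3 and 60.6 (aged). Both aged values of Incenp lay above young replicates 2 and 3, both of Cdca8 lay between them, and of Birc5 aged replicate 2 was the lowest library. Aurkb, the kinase of the complex, had 89.2, 64.6 and 15.5 CPM (young) against 30.5 and 18.0 (aged).

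For the spindle checkpoint, Mad2l1, which inhibits the anaphase promoting complex, was at 110, 32.9 and 40.8 CPM (young) against 29.5 and 39.3 (aged). Bub1b (BubR1), of the same inhibitory complex, was at 74.9, 24.4 and 12.7 CPM (young) against 17.9 and 18.0 (aged). Bub1, a kinase that recruits the checkpoint to kinetochores, was at 59.9, 13.4 and 2.82 CPM (young) against 10.5 and 12.3 (aged). The 2 aged values were nearly equal for Bub1b, and aged replicate 2 was the lowest library for Mad2l1, where young replicate 3 was the lowest for the other checkpoint genes. Ttk, the kinase that starts the checkpoint signal, had 25.9 in young replicate 1 and 4.22 to 14.6 elsewhere.

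Nusap1 bundles spindle microtubules around chromosomes. It had 243, 107 and 57.7 CPM (young) against 63.2 and 77.5 (aged). Tpx2, which activates Aurora A, had 104, 42.7 and 11.3 CPM (young) against 25.3 and 29.2 (aged). Hmmr, a spindle pole protein, had 74.3, 32.9 and 9.86 CPM (young) against 8.43 and 13.5 (aged). In this group young replicate 3 was the lowest library for 7 of 8 members, all but Hmmr. Aurka and Plk1, the Aurora A and Polo kinases, had 0 UMIs in young replicate 3, which allows up to 4.22 CPM, against 34.9 and 32.1 in young replicate 1. Aspm, Ckap2 and Ckap2l had 54.9, 33.2 and 54.3 in young replicate 1 and 1.41 to 19.5 elsewhere.

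Racgap1 and Kif23 form the centralspindlin complex that positions the division furrow. Racgap1 had 158, 90.2 and 38.0 CPM (young) against 46.3 and 76.3 (aged). Prc1, which crosslinks the central spindle, had 124, 64.6 and 18.3 CPM (young) against 23.2 and 28.1 (aged). Ect2, the exchange factor that activates RhoA at the furrow, had 45.9, 25.6 and 1.41 CPM (young) against 14.7 and 11.2 (aged). In each of these the aged values lay between young replicates 2 and 3. Anln, the actin binding anillin, had 21.4, 7.31 and 7.04 CPM (young) against 4.21 and 3.37 (aged), on few UMIs outside young replicate 1.

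Ube2c, the ubiquitin conjugating enzyme of the anaphase promoting complex, had 445, 107 and 22.5 CPM (young) against 48.5 and 49.4 (aged). Ccnb2, a mitotic cyclin, had 235, 106 and 32.4 CPM (young) against 70.6 and 55.0 (aged). Cdk1, the kinase that mitotic cyclins activate, had 220, 71.9 and 22.5 CPM (young) against 46.3 and 53.9 (aged). These aged values again lay between those of young replicates 2 and 3. Ccnb1, Cdkn3 (a phosphatase of cyclin dependent kinases) and Cdc20 (the checkpoint target that activates the anaphase promoting complex) had 100, 88.4 and 128 in young replicate 1 and 15.5 to 47.5 elsewhere.

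Top2a (ENSMUSG00000020914, chromosome 11, 98992943 to 99024189, GRCm38) untangles sister chromatids. It had 913, 284 and 156 CPM (young) against 127 and 122 (aged). Mki67, which coats mitotic chromosomes and is the antigen of the Ki-67 stain, had 415, 107 and 50.7 CPM (young) against 47.4 and 55.0 (aged). For Top2a the aged libraries lay below all young ones, and the gap between the lowest young and the highest aged library was small beside the spread of the young. For Mki67 the ages overlapped.

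**Figure D2:**
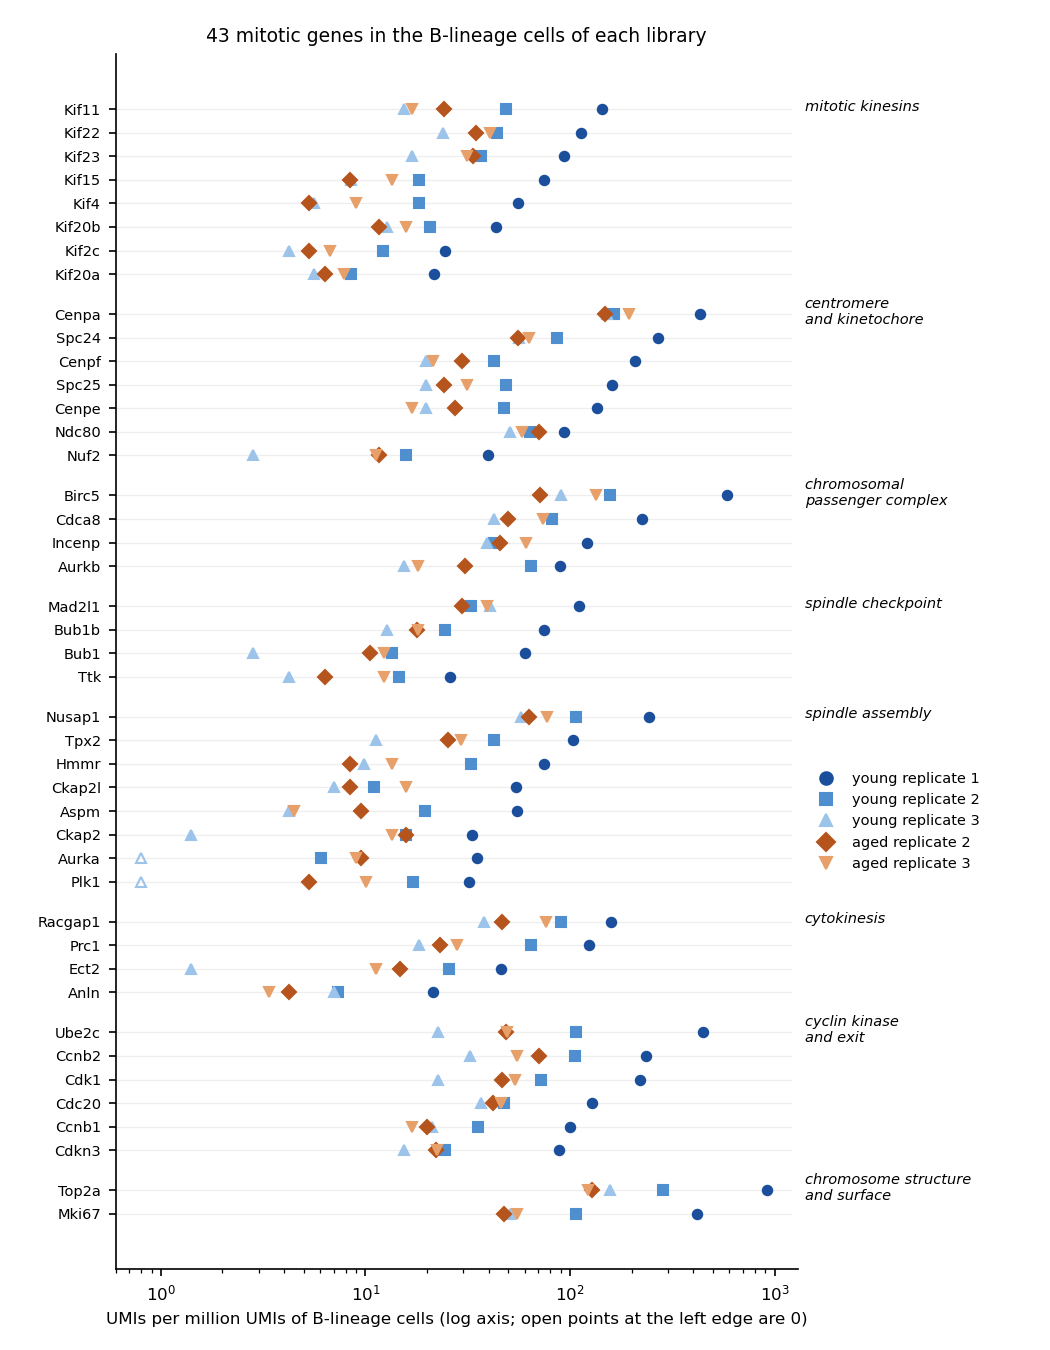
Level of each of the 43 genes in B-lineage cells (horizontal axis, CPM, log axis) by library (symbols), ordered by role. Open symbols at the left edge stand for 0 UMIs. The symbol of young replicate 1 lies farthest right in every line, and the other 4 libraries overlap.

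With age, no member passed the test in the main fit, which has no block for replicate numbers (the fit with that block is given later). In edgeR on UMIs summed over B-lineage cells, 0.0% of 7647 genes were called at an adjusted p under 0.05, and 160 had an unadjusted p under 0.05. DESeq2 and limma also called 0. Of the 43 members 40 passed the filter on low counts, and all 40 had a lower fitted value in aged libraries, with a median log2 fold change of -1.36 against -0.01 over all genes. An unadjusted p under 0.05 was found for 9 of them. Top2a had a log2 fold change of -2.06 ± 0.75 (SE) and Mki67 of -2.14 ± 0.86, each at an edgeR adjusted p of 0.989. The smallest differences were those of Ndc80, at -0.28 ± 0.37, and Ckap2, at -0.56 ± 0.83.

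The size of these differences rested largely on young replicate 1. Without it 34 members were tested, of which 10 had a higher and 24 a lower value in aged libraries, with a median of -0.17. Top2a then had -0.86 ± 0.25 and Mki67 -0.67 ± 0.33, while Cenpa had 0.07 ± 0.22 and Bub1 0.41 ± 0.67, and edgeR called 0 genes (adjusted p of 1.00 for all 4, with 189 genes at an unadjusted p under 0.05). When each library was left out in turn, the highest values were -1.02 for Hmmr, -0.75 for Prc1 and -0.70 for Kif11. With genes of low counts kept in, 14660 genes were tested, of which 67 were called, 60 of them lower. Of the 43 members 15 were then called lower in aged libraries. Restricted to cells positive for the surrogate light chain (below), 27 of 29 tested members had a lower value, with a median of -0.96, and 0.0% of 5711 genes were called by edgeR, DESeq2 or limma (110 at an unadjusted p under 0.05 in edgeR). Without young replicate 1 that median was -0.10.

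**Figure D3:**
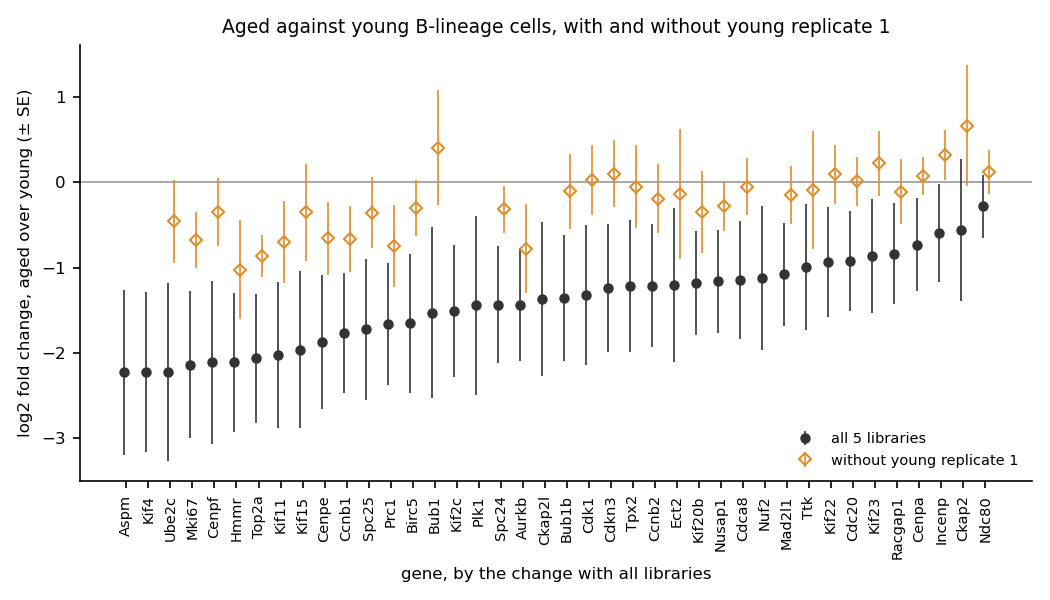
Log2 fold change of aged over young B-lineage cells (vertical axis, bars are standard errors from edgeR) for the 40 members tested (horizontal axis), with all 5 libraries (filled) and without young replicate 1 (open, 34 members). All filled symbols are below 0, and 10 of the 34 open symbols are above 0.

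Within the B lineage 3 stages were separated with genes outside the list. Cells with at least 1 of 1000 UMIs from Vpreb1, Vpreb2, Igll1 or Dntt were taken as surrogate light chain positive, the stage at which pro-B and early pre-B cells assemble a first receptor. Of the rest, cells with at least 2 UMIs from Cd74, H2-Aa, H2-Ab1 or H2-Eb1 were taken as MHC class II positive, which B cells become as they mature, and the others passed neither gate. In young replicate 1 the first gate was also met by 12.4% of neutrophil-like cells, against 29.2% of B-lineage cells, and the former share is taken as the background of that gate. The shares of member-positive cells were 54.4%, 5.2%, 5.9%, 5.1% and 13.01% in surrogate light chain positive cells, in that order of libraries. They were 67.0%, 12.7%, 8.5%, 10.5% and 4.3% in MHC class II positive cells. In numbers these were 112 of 206, 3 of 58, 9 of 152, 9 of 178 and 19 of 146 surrogate light chain positive cells. For MHC class II positive cells they were 126 of 188, 7 of 55, 5 of 59, 2 of 19 and 3 of 70. The 95% exact binomial intervals of both stages overlapped in every library. The first stage was lower in 4 of 5 libraries and higher in aged replicate 3, with a mean difference of -3.90 percentage points ± 7.96 (SD, n = 5; two-sided exact permutation p = 0.375 over 32 sign flips, which cannot reach 0.05). With another random seed for the thinning the mean difference was -2.51 points and with thinning to 1500 UMIs -1.37 points, each lower in 3 of 5 libraries, and with the stricter stage gate it was -4.42 points and lower in 2 of 5. Without thinning the mean difference turned to 4.62 points, and counting cells with at least 1 member it turned to 2.53 points.

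Summed counts gave few calls between stages. In surrogate light chain positive against MHC class II positive cells, edgeR with library as a block called 12.2% of 4798 genes, 5.59% as lower. Of 26 members tested, 3 (11.5%) were called, all lower. The share called in either direction is near that of all genes. Spc25, of the NDC80 complex, was at 95.9, 14.7 and 15.3 CPM in surrogate light chain positive cells (young) against 22.6 and 37.8 (aged). In MHC class II positive cells it was at 197, 86.0 and 30.1 CPM (young) against 74.7 and 13.2 (aged), so 4 of 5 libraries had the higher value there. The sums of that stage held 132754 UMIs of all genes in young replicate 3. They held 66944 UMIs in aged replicate 2, from 19 cells, and 151683 in aged replicate 3. Values of Spc25 in these libraries thus rest on few UMIs. Its log2 fold change was -0.90 ± 0.28 (SE, edgeR adjusted p = 0.0267).

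Cdca8 differed by -0.72 ± 0.23 (edgeR adjusted p = 0.0357) and Racgap1 by -0.72 ± 0.24 (edgeR adjusted p = 0.0407). Cdca8 was at 170, 58.8 and 40.9 against 284, 149 and 37.7 CPM for the young libraries, and at 29.1 and 87.4 against 164 and 59.3 for the aged. Racgap1 was at 102, 62.4 and 30.7 against 208, 136 and 15.1 CPM for the young libraries, and at 29.1 and 87.4 against 120 and 52.7 for the aged. Both were lower in the surrogate light chain positive stage in 3 of 5 libraries. Their MHC class II positive values in young replicate 3 and the aged libraries also rest on few UMIs. All 26 members had a negative fitted value, with a median of -0.43 against 0.01 for all genes. DESeq2, limma, leaving out young replicate 1 and leaving out young replicate 2 each left 0 members called, and without aged replicate 3 there were 10 of 28, where 454 of 4676 genes were called.

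The order of the stages was not the same in each library. In young replicate 1, 40 of the 43 members had a lower level in surrogate light chain positive than in MHC class II positive cells, and in aged replicate 3, 4 of the 43 did. No member was lower in all 5 libraries, and 11 were lower in 4. The MHC class II positive cells held 5904, 655 and 181 UMIs of the 43 genes together (young) against 139 and 159 (aged). Against cells of neither gate, 2 members (7.69%) were called lower in surrogate light chain positive cells, Spc25 at -0.72 ± 0.25 and Racgap1 at -0.62 ± 0.22 (edgeR adjusted p = 0.0482 for both), where 15.5% of genes were called, 7.5% as lower. Leaving out young replicate 1, 2 or 3 in turn each left 0, and with the stricter stage gate 11 of 27 members were called lower, where 473 of 4930 genes were. Between neither gate and MHC class II positive cells no member was called and 0.25% of genes were (1 member at an unadjusted p under 0.05, and 0 by DESeq2 and limma). Ube2c had the lowest value there, at -0.61 ± 0.22 (edgeR adjusted p = 0.720).

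Cells were also split by S phase genes, none of which is a member. A cell with at least 3 of 42 such genes at 1000 UMIs (among them Mcm2 and Pola1, of the replication machinery) has the S phase call here. It was made in 78.7%, 12.6% and 13.3% of B-lineage cells (young) against 14.6% and 13.2% (aged). Among cells with the call, the member-positive share was 75.7% (71.9 to 79.2), 57.1% (37.2 to 75.5) and 41.5% (26.3 to 57.9) for young replicates 1 to 3, and 36.6% (22.1 to 53.1) and 49.0% (34.8 to 63.4) for the aged. Among cells without it, the share was 34.7% (27.1 to 42.9) in young replicate 1, 0 of 195 cells in young replicate 2, which allows up to 1.54% at 3 counts of the total and 1.87% by the exact interval, and 1.1%, 0.84% and 1.8% in the remaining 3 libraries. Outside young replicate 1, member-positive cells were thus largely cells with the call.

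Cells with the call in young replicates 1 and 2 carried like amounts of the members. Their summed level was 6806 and 6880 CPM, against 3538 in the third young library and 4009 and 4828 in the aged. Of the 43 genes, 18 were highest there in young replicate 1, 20 in young replicate 2 and 5 in another library. Top2a, for example, was at 977, 917 and 661 CPM (young) against 438 and 459 (aged). Aurkb was at 93.7, 192 and 63.5 CPM (young) against 97.2 and 66.8 (aged), so that young replicate 2 was the highest. The cells with the call numbered 555, 28, 41, 41 and 51, and their median depths ran from 3294 to 7480.5 UMIs.

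In the cells of young replicate 1 without the call, all 43 members had a higher level than in such cells of any other library, with a summed level of 6203 CPM against 338 to 537. Of the members, 12 were higher in these 150 cells than in the cells of the same library with the call. Ube2c was at 715 without and 403 with the call, Cenpa at 682 and 392.2, and Cdc20 at 211 and 115. Ccnb2 was at 312 and 223, Cdkn3 at 142 and 80.0, Ccnb1 at 151 and 92.4 and Aurka at 54.4 and 31.9. The other 31 members had the opposite order, among them Top2a at 506 and 977, Nuf2 at 12.5 and 43.9, Aurkb at 60.6 and 93.7 and Plk1 at 23.0 and 33.5. With 1 library the difference has no replicate check.

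Cenpa differed least between cells with and without the call outside young replicate 1. In the 4 other libraries together, 1036 B-lineage cells lacked the call and 161 had it. Cenpa was at 142 CPM in the cells without the call and at 229 in those with it, a ratio of 1.62, where the median ratio over the 37 members with more than 3 UMIs in the former was 13.4. Its 350 UMIs made up 31.8% of the 1102 member UMIs of cells without the call. By library, its level without the call was 107 and 156 CPM (young replicates 2, 3) against 132 and 170 (aged). With the call it was 292 and 140 CPM (young replicates 2, 3) against 191 and 267 (aged), so the order was reversed in young replicate 3. Of its UMIs at equal depth, 15.7% lay in cells with the call, which are 13.5% of these cells. For Top2a, Nusap1 and Spc24 that share was 93.9%, 91.7% and 86.8%, and over the 18 members with at least 20 such UMIs the median was 68.9%. Cdc20, at 42.1%, was the other of the 18 below 50%. Cenpa (ENSMUSG00000029177) lies on chromosome 5 at 30666777 to 30674830 of GRCm38, and its promoter stretch above holds 2 CCAAT boxes and TTTAAA. Its whole window also holds a TTTGAA core, which the end of the printed stretch cuts.

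**Figure D4:**
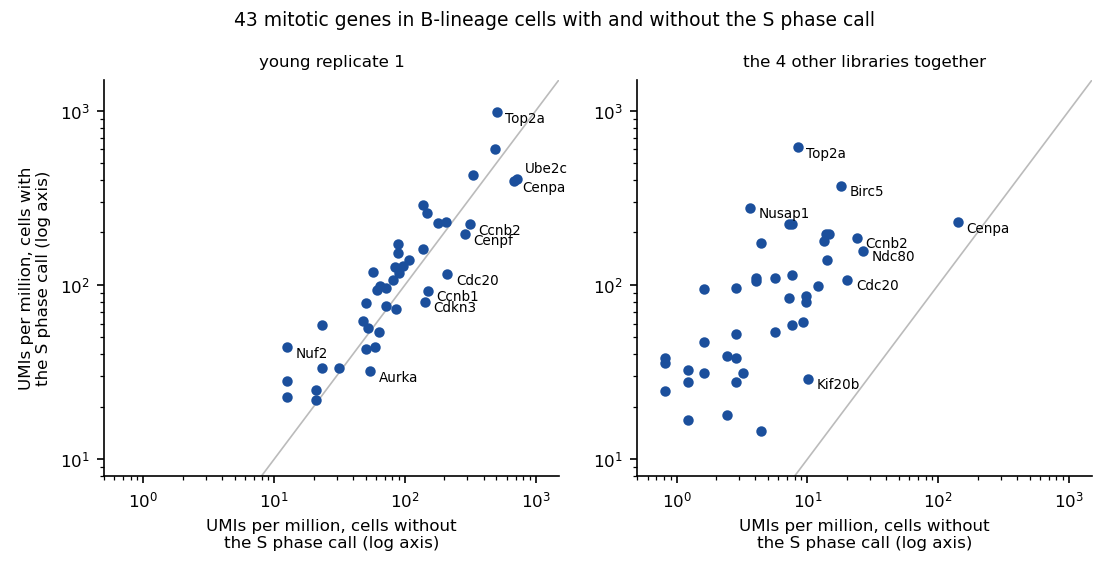
Level of each of the 43 genes (CPM, both axes log) in B-lineage cells without (horizontal) and with (vertical) the S phase call, in young replicate 1 (left) and in the 4 other libraries together (right). The grey line marks equal levels. On the right Cenpa, at 142 and 229, is nearest the line, and on the left Ube2c, Cenpa and Cdc20 lie below it.

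By cluster, formed without the 43 genes and without the other listed cell cycle genes, member-positive cells made up 92.4% of the 436 cells of cluster 1 and 50.5% of the 293 cells of cluster 3. Both clusters came mostly from young replicate 1, with 386 and 208 cells. In the other 4 B-lineage clusters the share was at most 1.3%. Cluster 2, led by Vpreb2, Dntt and Vpreb1, had 1 member-positive cell of 361, and cluster 4, led by Cd74 and H2-Aa, had 3 of 232. The 10 genes that led cluster 1 included 5 members (Spc25, Cenpf, Kif11, Nusap1 and Mki67), and those of cluster 3 included Ung and Gins2, which act in DNA repair and replication, so these shares are a description.

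Neutrophil-like cells had fewer of these transcripts than B-lineage cells of the same library. The cluster was led by S100a8 and S100a9 and by the granule genes Prtn3, Elane, Ctsg and Mpo. These were the 6 of 11 neutrophil markers detected in at least 10% of its cells, and Camp, Ngp, Ltf, Lcn2 and Fcnb fell short. Of the monocyte markers 7 of 8 were detected, and of the basophil and mast cell markers 5 of 8. The median log2 ratio to the other cells was 5.7 for neutrophil, 3.0 for monocyte and 2.3 for basophil and mast cell markers. Ly6c2 of monocytes and Mcpt8 and Prss34 of basophils were also among its leading genes, so it is a mixture of myeloid cells. Young replicate 1 was the only library with at least 10 such cells, so no test was possible and the values compare cell classes of that library. Of its 177 neutrophil-like cells 23.7% (17.7 to 30.7) were member-positive at 1000 UMIs, against 67.0% of all B-lineage and 54.4% of surrogate light chain positive cells. Without thinning the share was 76.8%, at a median depth of 9533 UMIs, and that of surrogate light chain positive cells was 77.2%, at 4508 UMIs. The S phase call was made in 53.1% of them, and 25.5% (17.1 to 35.6) of the 94 cells with the call were member-positive, against 75.7% in the B lineage. The neutrophil-like cells with the call had a median of 4 S phase genes, against 7 in B-lineage cells.

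All 43 members had a lower level in the neutrophil-like than in the surrogate light chain positive cells of young replicate 1. That direction was shared by 59.9% of 7028 genes with at least 35 UMIs, which were not matched for level. The counting intervals were apart for 39 of the 43. The ratio had a median of 0.41 and ran from 0.15 for Ttk to 0.67 for Aurka. Top2a was at 185 (95% Poisson interval 166 to 205) against 682 CPM, Cenpf at 29.3 (22.2 to 37.8) against 152, and Nusap1 at 44.4 (35.6 to 54.7) against 187. Birc5 was at 210 (191 to 232) against 425, and Spc24 at 112 (98.2 to 128) against 215. The summed level was 1989 against 4959, and there were 0.59 member UMIs for each S phase UMI against 0.73 in the surrogate light chain positive cells. The neutrophil-like cells with at least 2 UMIs of primary granule genes gave a like share, 28 of 111 (25.2%), those with monocyte genes 10 of 32 and those with basophil and mast cell genes 4 of 10 (12.2 to 73.8%). Among the 22 endothelial-like cells of all libraries, 1 was member-positive, with 18 member UMIs in all.

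**Figure D5:**
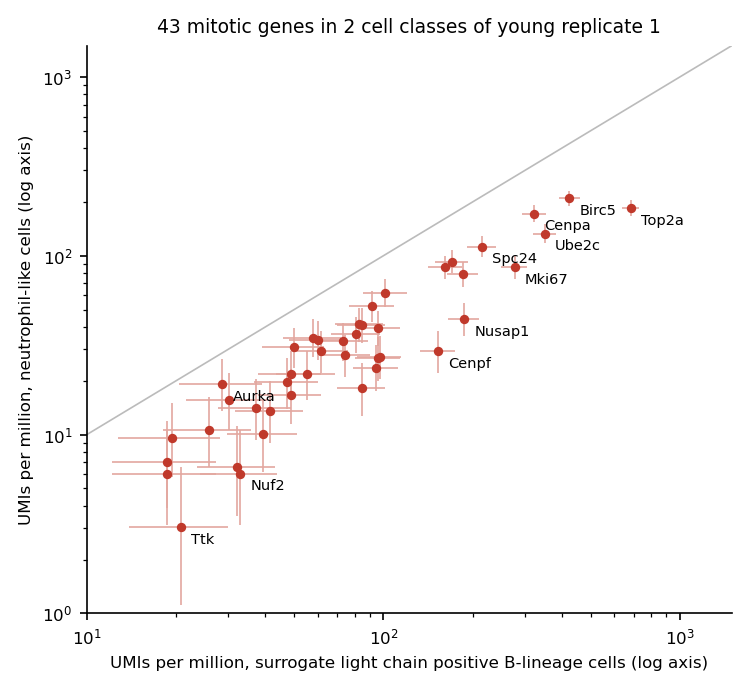
Level of each of the 43 genes (CPM, both axes log) in surrogate light chain positive B-lineage cells (horizontal) and neutrophil-like cells (vertical) of young replicate 1. Bars are 95% Poisson counting intervals and the grey line marks equal levels. All 43 points lie below the line.

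Other genes of the pathway were read from 7 lists in the same fits. With age none of these lists had a gene called. All 42 S phase genes, all 30 tested genes of other kinetochore and checkpoint parts and 27 of 29 of other spindle, motor and cytokinesis parts had lower values in aged libraries, and without young replicate 1 these were 30 of 41, 16 of 25 and 17 of 23. Between surrogate light chain positive and MHC class II positive cells, no S phase gene of 37 and no condensin or cohesin gene of 16 was called. Pmf1, a kinetochore subunit of the MIS12 complex, rose by 0.92 ± 0.22 on the log2 scale (edgeR adjusted p = 0.00402), 1 of 14 in its list. Cks2, a partner of Cdk1, fell by 0.50 ± 0.13 (edgeR adjusted p = 0.00613), 1 of 15 in its list. Ube2s, which works beside Ube2c, fell by 0.41 ± 0.14 (edgeR adjusted p = 0.0497), 1 of 14, and E2f2 fell by 0.78 ± 0.18 (edgeR adjusted p = 0.00244), 1 of 9.

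A list of genes linked to cell cycle exit was also read between the stages. Of 10 tested, 5 fell and 1 rose in surrogate light chain positive against MHC class II positive cells. Klf2, a quiescence factor of lymphocytes, differed by -1.40 ± 0.16 and Btg1, an inhibitor of proliferation, by -0.88 ± 0.10 (edgeR adjusted p = 3.48e-08 and 7.06e-08). Cdkn2d, Ccng2 and Btg2 also fell, and Cdkn1a, the p21 inhibitor, rose by 1.19 ± 0.28 (edgeR adjusted p = 0.00280). Against cells of neither gate 6 fell, these 5 and Foxo1, and Cdkn1a rose. Whether the share of calls differs between this list and the members was not tested.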

How the data were processed

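RNA of single cells was measured in 5 libraries, and the deposited matrices hold unnormalized UMI counts, with genes by barcodes in a separate matrix for each library. Tools listed per the submitters' processing notes, with no role given, are Cell Ranger, edgeR 3.24.3, DESeq2 1.22.2 and R 3.5.2, and the build listed is mm10. The rule that chose the deposited barcodes is not given in the sources used here. Symbols from a reference table matched 27645 of 27998 identifiers, and positions came from GENCODE on GRCm38.

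Barcodes with at least 500 genes, at least 1000 UMIs and at most 10% mitochondrial UMIs were kept (2116 of 3384). Cells were clustered with scanpy 1.11.5 and leidenalg 0.10.2 (2000 variable genes without the 43 members and the listed cell cycle genes, 30 components, 15 neighbours, resolution 0.8) and named from marker lists. Doublet calls (58 cells, expected rate 2%) stayed in and were left out as an alternative. Counts were summed per library and class and tested with edgeR 4.0.16 in R 4.3.3 (quasi-likelihood F test, TMM, filterByExpr, Benjamini-Hochberg, threshold 0.05), in 5 comparisons. DESeq2 1.42.0 and limma 3.58.1 were alternatives. Cells were thinned to 1000 UMIs before shares were taken, and shares were compared with exact permutation tests. Positive and negative values are aged minus young, or the first stage named minus the second.

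Named members were the 3 with most UMIs in each role, and every member is in the counts. The members and lists were chosen with earlier results of these data known. Counts were simulated with known changes, with all libraries drawn from 1 pooled profile and the same fixed dispersion for every gene. No library was set apart in them. On these counts the age fit on B-lineage sums (7494 genes) recovered 14.4% of genes changed by 1 log2 unit. Of genes changed by 2 it recovered 87.8%. The fit of surrogate light chain positive sums (5540 genes) recovered 17.4% and 85.9%, and the stage fit (4647 genes) 55.6% and 98.7%. In the real age fit on B-lineage sums, Top2a had -2.06 ± 0.75 (SE) and was not called. These shares are therefore not the power of the real fits for genes as spread between libraries as the members. A planned test of neutrophil-like against surrogate light chain positive cells was not run, because 1 library held at least 10 of both. Replicate numbers 2 and 3 occur in both ages, and the sources used here do not say what a shared number stands for.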

Additional observations from a re-analysis of the deposited data

How the results depend on the processing

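The difference in member-positive cells between aged and young libraries ran from -30.0 to 0.238 percentage points when 1 library was left out, with the positive value without young replicate 1, and stayed negative under the other settings. Its p cannot pass the threshold with 10 splits, so it says nothing on stability. The stage difference in the share ran from -7.06 to -1.71 points when 1 library was left out, and reversed to 2.53 with at least 1 member and to 4.62 with no thinning. For aged against young B-lineage cells 0 members were called, but 15 were with no filter on low counts (67 of 14660 genes). In surrogate light chain positive cells 2 of 43 were called with no filter (13 of 13649 genes). For the age fits the count was 0 when any 1 library was left out.

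Of surrogate light chain positive against MHC class II positive cells, 3 members were called. The count was 0 with DESeq2, with limma and with no library block, 1 with doublets left out, 6 in cells as deep as young replicate 1 (526 of 4203 genes, chosen after seeing the data), 6 with the stricter stage gate (822 of 4930 genes), and 0 to 10 when 1 library was left out (10 without aged replicate 3, where 454 of 4676 genes were called). Against cells with neither, 2 members were called, and the count was 0 with DESeq2, DESeq2 size factors, limma, no TMM factor or no library block, 1 with doublets left out or the stricter cell filter, 11 with the stricter stage gate, and 0 to 3 when 1 library was left out. Those 11, all lower, are of 27 members tested, where 964 of 4930 genes were called, 473 of them lower. The causes were not tested.

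Replicate numbers 2 and 3 are shared by the ages, and with these 2 numbers the check of pairing gave a correlation of 0.315 in each pair, equal because 2 pairs mirror each other. This value was not tested, and it does not show that the numbers are only names. The median mitochondrial share of kept cells was 2.63% and 2.54% in young and aged replicates 2, against 4.32% and 4.26% in replicates 3. Deposited barcodes numbered 329 and 385 in replicates 2, against 746 and 922 in replicates 3. The main age fits have no replicate block, because the sources used here do not say what a shared number stands for. With the replicate block, 1 member was called, Top2a, at -0.83 (edgeR adjusted p = 0.0412), among 13 of 7647 genes, 11 of them lower. Under the block 6 of the named members reversed: Kif22 to 0.10, Kif23 to 0.25, Cenpa to 0.061, Incenp to 0.31, Bub1 to 0.43 and Cdk1 to 0.076. Young replicate 1 has no partner under the block. With 1 library left out the same genes ran from -1.29 to 0.092 (Kif22), -1.24 to 0.22 (Kif23), -0.99 to 0.072 (Cenpa), -0.86 to 0.32 (Incenp), -1.98 to 0.41 (Bub1) and -1.77 to 0.028 (Cdk1).

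Depth limits the levels outside young replicate 1: most members had under 50 UMIs at equal depth in the 4 libraries together. Neutrophil-like cells were described in 1 library.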

Other observations

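Genes outside the list that followed the members most closely across B-lineage cells were taken by Pearson's correlation with the number of members detected, at 1000 UMIs. In young replicate 1 (705 cells) these were Hmgb2, a chromatin protein of dividing cells (r = 0.62), Ube2s (0.46), H2afz (0.42), H2afx (0.42), H2afv (0.41) and Smc4, a condensin subunit (0.41). In the 4 other libraries (1197 cells) they were Hmgb2 (0.69), the tubulin gene Tuba1b (0.62), H2afz (0.60), Hist1h2ap (0.57), H2afx (0.56) and Stmn1, a tubulin binding protein (0.54). The lowest correlations in young replicate 1 were those of ribosomal protein genes, such as Rps23 (-0.32). In the other libraries they were those of Malat1 (-0.22), Ftl1 (-0.21), the ribosomal protein gene Rps27 (-0.20) and Btg1 (-0.20). The cells share library and thinned depth, so these values are a description.

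Among the members themselves, Birc5 (0.60), Top2a (0.49) and Nusap1 (0.49) had the highest correlation with the number of other members detected outside young replicate 1. The lowest were Anln (0.014), Kif20b (0.12), Kif20a (0.12), Aurkb (0.14) and Cenpa (0.16). Of the 1197 cells there, 3 had a UMI of Anln, 14 of Kif20b, 3 of Kif20a and 10 of Aurkb, against 144 of Cenpa. The first 4 values thus rest on few cells. In young replicate 1 Ube2c (0.44), Cenpf (0.40) and Top2a (0.37) were highest, and Cenpa had 0.34. By cluster outside young replicate 1, Cenpa was at 136 CPM in cluster 0, 101 in cluster 2 and 111 in cluster 4, where Top2a was at 9.63, 10.1 and 2.26. In clusters 1 and 3 Cenpa was at 296 and 323 and Top2a at 1200 and 473.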
